A study of Mus musculus with 8 samples.

Results

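The transcripts described here are those of 9 RNA helicases of the spliceosome, *Dhx8*, *Dhx15*, *Dhx16*, *Dhx38*, *Ddx46*, *Ddx39b*, *Ddx41*, *Ddx42* and *Aqr*. They were taken by name from the 55385 genes of the count table. All 9 were found, and all 9 were among the 17445 genes that passed the filter on low counts. The cells were R1 mESCs, a mouse embryonic stem cell line of wild-type genotype, grown without feeder cells in N2B27 medium with 2i and LIF. In the KD groups a lentivirus carried a hairpin against *Eftud2*, a GTPase of the U5 snRNP. The group called shRNA1 has 3 libraries and the group called shRNA2, with another hairpin, also has 3. The control group received a non-targeting hairpin (nt-shRNA) and has 2 libraries. All groups alike went through 2 days of infection and 3 days of puromycin selection, so an uninfected state was not measured. RNA was poly(A)-selected, and each library is a biological replicate.

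RNA helicases use ATP to separate RNA strands or to strip proteins from RNA, and the spliceosome needs a succession of them, each acting at its own stage. *Ddx39b*, *Ddx46* and *Ddx42* act early, when the U2 snRNP is brought to the branch site of the intron. The DEAH-box enzymes act later and in order: *Dhx16* prepares the spliceosome for the first catalytic step, *Dhx38* rearranges it between the steps, *Dhx8* releases the spliced mRNA, and *Dhx15* takes the remaining intron complex apart. *Aqr* encodes a helicase that binds the intron upstream of the branch site, and *Ddx41* a DEAD-box protein found in catalytic spliceosomes. The EFTUD2 protein sits in the U5 snRNP next to another helicase, SNRNP200, which unwinds U4 from U6. The question asked of the data was how the transcripts of this machinery stood in mESCs given hairpins against *Eftud2*.

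The families are named after a short box of residues (motif II) that takes part in ATP hydrolysis. The coding bases around the box are given here for the members in which it was found. Likeness of sequence between members was not measured. Each line is a stretch of 30 coding bases from a GENCODE M21 transcript on GRCm38, read 5′ to 3′ on the gene's own strand, with the codons of the box in capitals (Asp-Glu-Ala-His in DEAH, Asp-Glu-Ala-Asp in DEAD, Asp-Glu-Cys-Asp in *Ddx39b*). The first set holds the late-acting DEAH enzymes and the next set the DEAD and DECD enzymes.
Dhx16: gtgatggtgGATGAAGCTCACgagcggacc
Dhx38: gtcatcatgGATGAGGCCCACgagcgctcc
Dhx8: attatgttgGATGAAGCACACgagaggacc
Dhx15: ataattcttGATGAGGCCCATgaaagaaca
Ddx39b: tttattttgGACGAGTGTGACaagatgctt
Ddx46: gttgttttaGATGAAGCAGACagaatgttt
Ddx42: cttgtgtttGATGAAGCCGATcgaatgttt
Ddx41: ctagccctgGATGAAGCTGACcgcatgatt

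The capitals of *Dhx16* lie at chr17:35885508-35885519 in exon 10 of 20, those of *Dhx38* at chr8:109556065-109556076 in exon 14 of 27, those of *Dhx8* at chr11:101752140-101752151 in exon 14 of 23 and those of *Dhx15* at chr5:52171496-52171507 in exon 4 of 14. Among the others, the box of *Ddx39b* is at chr17:35247090-35247101 (exon 5 of 11), that of *Ddx46* at chr13:55660758-55660769 (exon 13 of 23), that of *Ddx42* at chr11:106238574-106238585 (exon 11 of 18) and that of *Ddx41* at chr13:55533056-55533067 (exon 10 of 17). Each of these 8 coding sequences held 1 match, and that of *Aqr*, a helicase of another superfamily, held 0 matches to these letters.

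Total counts ran from 19569525 to 29871048 per library, so that 3 counts correspond to between 0.1004 and 0.1533 CPM, well below every member. Levels are given as CPM, the counts of a gene relative to the library total after TMM normalization. All 8 markers of mESCs on the list were measured in every group. Their summed level was 4686 to 4716 CPM with nt-shRNA, 5267 to 5473 with shRNA1 and 6213 to 6307 with shRNA2. The members of that list did not move together: mean levels with nt-shRNA, shRNA1 and shRNA2 were 912.4, 1340 and 1549 CPM for *Nanog* and 185, 290.5 and 460.4 CPM for *Klf4*, but 774.2, 606.1 and 634.5 CPM for *Pou5f1* and 345.2, 313.2 and 339.5 CPM for *Sox2*. Markers of fibroblasts summed to 7.87 to 8.21 CPM with nt-shRNA, 9.74 to 11.2 with shRNA1 and 8.56 to 9.96 with shRNA2. *Col3a1* and *Twist2* were at 0 in the control. Endoderm markers summed to 19.82 to 20.24 CPM with nt-shRNA, 18.49 to 21.96 with shRNA1 and 14.12 to 17.02 with shRNA2. For mesoderm markers the sums were 3.17 to 3.90, 2.3 to 3.17 and 2.62 to 3.30 CPM in the same order. Neural markers summed to 16.9 to 19.6 CPM with nt-shRNA, 23.5 to 25.9 with shRNA1 and 39.5 to 58.7 with shRNA2. Of the neural list, *Tubb3* (means of 10.22, 15.62 and 30.51 CPM in the same order) and *Neurod1* (0.166, 1.883 and 8.754 CPM) were higher in the KD groups, whereas *Sox1* (6.389, 5.913 and 5.528 CPM) and *Pax6* (1.497, 1.008 and 1.117 CPM) were not. In bulk RNA a change in the number of cells of a kind and a change in RNA per cell cannot be told apart, and the part of these marker shifts in the helicase values was not tested.

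The targeted transcript was measured first. *Eftud2* (chr11:102838473-102880985) stood at 262 and 256 CPM with nt-shRNA, at 232, 229 and 225 CPM with shRNA1, and at 198, 202 and 235 CPM with shRNA2. Every KD library lay below both controls, and 1 library of shRNA2, replicate 3, lay above those of shRNA1. With shRNA2 the level fell to 0.82-fold (log2 fold change -0.29, SE 0.068, adjusted p = 0.00122 by edgeR's quasi-likelihood test with Benjamini-Hochberg adjustment over all tested genes, which is the test used throughout). With shRNA1 the log2 fold change was -0.18 (95% interval -0.32 to -0.04) and did not pass at 0.05 (adjusted p = 0.0514). The difference between the hairpins in *Eftud2* did not pass with all libraries (log2 difference -0.11, 95% interval -0.24 to 0.02, adjusted p = 0.164) and did without shRNA2 replicate 3 (-0.19, adjusted p = 0.0127). Values with other settings, some of which bring the shRNA1 difference past the threshold, are given with the processing checks.

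Most of the helicase transcripts were higher with the hairpins against *Eftud2* than with nt-shRNA, and more so with shRNA2. With shRNA2, 8 of 9 members rose and 0 fell, against 27.2% of tested genes that rose and 28.7% that fell. With shRNA1, 5 of 9 rose and 0 fell, against backgrounds of 13.8% and 17.1%. These shares are over all tested genes. In mean level with nt-shRNA the members stood above 80.6% (*Ddx41*) to 97.2% (*Dhx15*) of them. Shares among genes of like level were not worked out. The median log2 fold change of the members was 0.38 with shRNA2 and 0.20 with shRNA1, where the median of all tested genes was within 0.01 of 0. The count of 0 fallen members held at an unadjusted p under 0.05 and with DESeq2, in both comparisons. Both comparisons use the same 2 control libraries, so that they are not independent of each other.

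**Figure D1:**
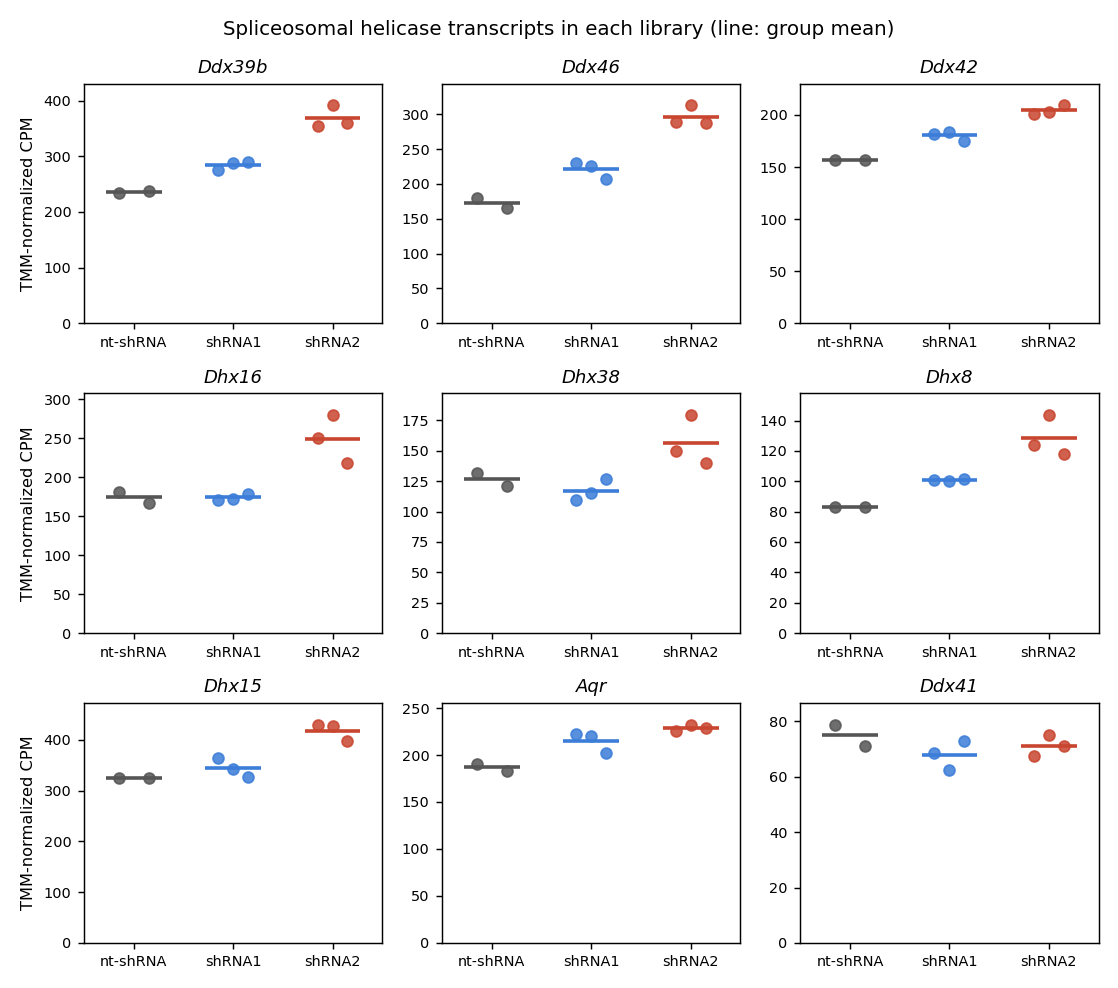
TMM-normalized CPM (vertical axes, starting at 0) of the 9 helicase transcripts, with a point for each library of nt-shRNA (n = 2), shRNA1 (n = 3) and shRNA2 (n = 3) and a line at the group mean. The shRNA2 points lie above the control points for every member except *Ddx41*, whose groups overlap.

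The early-acting helicases rose with both hairpins. *Ddx46*, the counterpart of yeast Prp5, which remodels the U2 snRNP at the branch site, had the largest change of the 9 with each hairpin. It was at 180.2 and 165 CPM with nt-shRNA, at 231, 226 and 207 CPM with shRNA1 and at 289.5, 313 and 288 CPM with shRNA2. The 3 groups did not overlap. The rise was 1.28-fold with shRNA1 (log2 fold change 0.36, SE 0.067, adjusted p = 0.000492) and 1.72-fold with shRNA2 (0.78, SE 0.068, adjusted p = 1.75e-08).

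*Ddx39b*, also known as UAP56, works both in U2 snRNP recruitment and, within the TREX complex, in mRNA export. Its levels were 233 and 238 CPM with nt-shRNA, 275, 288 and 289.8 CPM with shRNA1 and 355, 392 and 359 CPM with shRNA2. Here too the groups were separate, in the order nt-shRNA, shRNA1, shRNA2. *Ddx39b* rose 1.20-fold with shRNA1 (log2 fold change 0.27, SE 0.062, adjusted p = 0.00271) and 1.56-fold with shRNA2 (0.64, SE 0.062, adjusted p = 6.99e-08).

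*Ddx42* encodes a DEAD-box protein that associates with the SF3B complex of the U2 snRNP. It showed 157 CPM in both control libraries, 182, 184 and 175 CPM with shRNA1 and 201, 203 and 209 CPM with shRNA2. Replicates of this transcript lay close together, and the smaller rises of 1.15-fold with shRNA1 (log2 fold change 0.20, SE 0.058, adjusted p = 0.0121) and 1.30-fold with shRNA2 (0.38, SE 0.058, adjusted p = 1.66e-05) both passed the test. The shRNA1 call was lost without shRNA1 replicate 2 or either control library, at log2 fold changes of 0.19 to 0.20 and adjusted p-values of 0.0553 to 0.0922.

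Of the late-acting DEAH helicases, all 4 rose with shRNA2, where 27.2% of tested genes did. With shRNA1 1 rose, a share not far from the background of 13.8%. That one was *Dhx8*, the enzyme that frees the spliced mRNA. *Dhx8* was measured at 83.2 CPM in each control library, at 101, 99.9 and 101 CPM with shRNA1 and at 124, 144 and 118 CPM with shRNA2. The control and shRNA1 libraries hardly varied, and the shRNA2 libraries spread more widely but above both. The log2 fold change was 0.27 with shRNA1 (SE 0.073, adjusted p = 0.0074) and 0.63 with shRNA2 (SE 0.073, adjusted p = 6.92e-07), or 1.55-fold. Without either control library the shRNA1 value stayed at 0.27 and missed the threshold (adjusted p = 0.0617 and 0.0558).

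*Dhx16*, which acts just before the first catalytic step, moved with shRNA2 and not detectably with shRNA1. Its levels were 181 and 168 CPM with nt-shRNA and 171, 173 and 179 CPM with shRNA1, and those ranges overlapped. With shRNA2 the libraries read 250.5, 279.6 and 218 CPM, all above the others. The rise with shRNA2 was 1.43-fold (log2 fold change 0.51, SE 0.080, adjusted p = 2.28e-05), whereas the log2 fold change with shRNA1 had a 95% interval of -0.17 to 0.17 (adjusted p = 0.993).

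For *Dhx38*, which acts between the catalytic steps, the values were 131 and 121 CPM with nt-shRNA and 109, 115 and 126 CPM with shRNA1. With shRNA2 they were 150.2, 179 and 140 CPM, above every other library. This gave a rise of 1.24-fold with shRNA2 (log2 fold change 0.31, SE 0.087, adjusted p = 0.00518) and a log2 fold change of -0.11 with shRNA1 (95% interval -0.29 to 0.07, adjusted p = 0.355). The shRNA2 call depended on control replicate 2, without which the log2 fold change was 0.25 (adjusted p = 0.0785). Without shRNA2 replicate 2 it was 0.20 (adjusted p = 0.0245).

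*Dhx15* dismantles the post-splicing complex and also serves in ribosome biogenesis. It was at 326 and 324 CPM with nt-shRNA, at 364, 343 and 328 CPM with shRNA1 and at 429, 428 and 398 CPM with shRNA2. All shRNA1 libraries lay above both controls, the lowest of them by only a few CPM. The rise with shRNA2 was 1.29-fold (log2 fold change 0.36, SE 0.063, adjusted p = 7.29e-05). With shRNA1 the log2 fold change was 0.09 (95% interval -0.05 to 0.22, adjusted p = 0.32).

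*Aqr*, the intron-binding helicase and the longest gene of the 9 (chr2:114101170-114187024, minus strand), was at 191 and 183 CPM with nt-shRNA, at 222, 220.2 and 203 CPM with shRNA1 and at 226, 232 and 228 CPM with shRNA2. Both KD groups lay above the control. It rose 1.15-fold with shRNA1 (log2 fold change 0.20, SE 0.060, adjusted p = 0.0155) and 1.22-fold with shRNA2 (0.29, SE 0.061, adjusted p = 0.000453). The shRNA1 call was lost without shRNA1 replicate 1 or 2 or without either control library, with log2 fold changes of 0.17 to 0.23 and adjusted p-values of 0.0576 to 0.147.

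*Ddx41* was the member without a call in any comparison. Its libraries read 78.7 and 71.3 CPM with nt-shRNA, 68.6, 62.3 and 73.1 CPM with shRNA1 and 67.5, 75.0 and 71.1 CPM with shRNA2. The groups overlapped throughout. The 95% interval of the log2 fold change was -0.30 to 0.02 with shRNA1 (adjusted p = 0.178) and -0.23 to 0.08 with shRNA2 (adjusted p = 0.424), and the upper bound with shRNA2 lay below the estimate of each of the 8 members that rose. *Ddx41* (chr13:55530410-55536658, minus strand) shares 467 exonic bases, 17.4% of its exonic length, with *Gm46416* on the opposite strand. This overlap is in the gene models used for counting (GENCODE M24). *Gm46416* had 0 counts in every library. Counting used no strand, and fragments over exons of both genes were assigned to neither. The level of *Ddx41* may therefore be understated by that stretch.

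**Figure D2:**
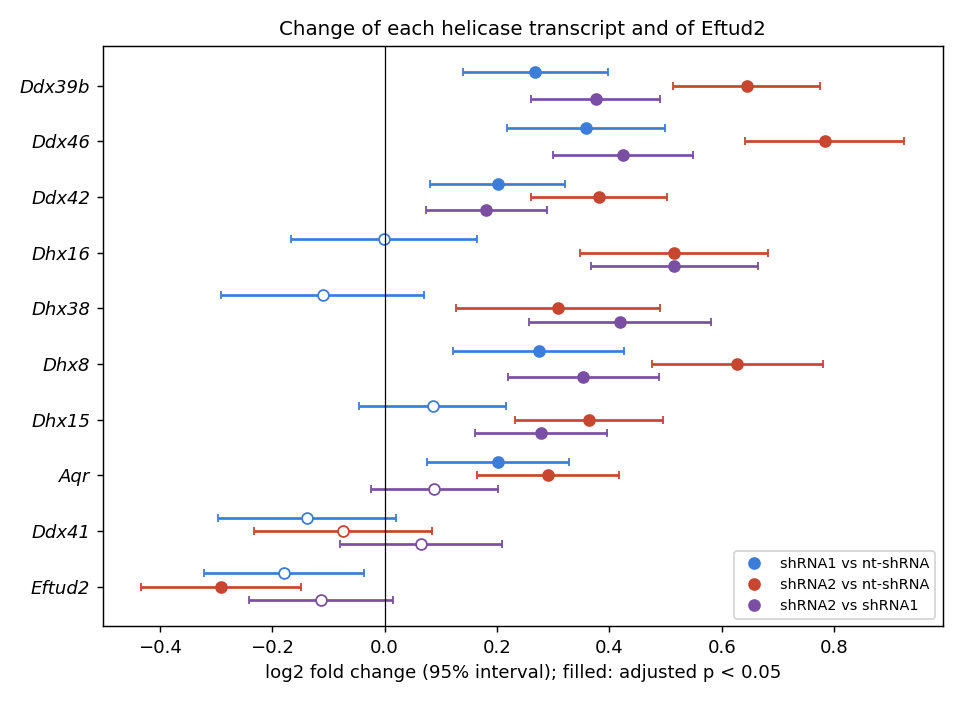
Log2 fold change (horizontal axis) with 95% interval for each helicase and for *Eftud2*, in shRNA1 against nt-shRNA, shRNA2 against nt-shRNA and shRNA2 against shRNA1, with filled points where the adjusted p was under 0.05. *Ddx46* has the largest value with shRNA2, 0.78, and the points of *Ddx41* are open in each comparison.

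By stage, then, the branch-site helicases gave 3 of 3 called higher with each hairpin, where 13.8% of tested genes were with shRNA1 and 27.2% with shRNA2, with median log2 fold changes of 0.27 and 0.64. The DEAH enzymes gave 1 of 4 with shRNA1 and 4 of 4 with shRNA2 and had medians of 0.04 with shRNA1 and 0.44 with shRNA2. The other members, *Aqr* and *Ddx41*, gave 1 of 2 (*Aqr*) with each hairpin, with medians of 0.03 and 0.11. Counted without a test, 6 of 9 members had every shRNA1 library above both controls, against 26.6% of tested genes, and 8 of 9 had every shRNA2 library above them, against 35.4%. The number of members called higher with shRNA1 (5 with all libraries) rested on single libraries. It was 2 without either control library, *Ddx46* and *Ddx39b* remaining in both cases, 3 without shRNA1 replicate 2, 4 without shRNA1 replicate 1 and 5 with each setting that kept all libraries except library size alone. With library size alone as the scaling *Dhx15* was also called with shRNA1 (log2 fold change 0.20, adjusted p = 0.0171), and that scaling moved the median of all genes to 0.11 and the share of higher genes among those called from 44.7% to 70.5%.

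The hairpins were also compared directly, without the control group as reference, although the control libraries still entered the shared fit of normalization and spread. Of the 9 members, 7 were higher with shRNA2 than with shRNA1 and 0 lower, also at an unadjusted p under 0.05 and with DESeq2, against 16.9% and 18.7% of tested genes. The median log2 difference was 0.35. The differences were largest for *Dhx16* (0.52, SE 0.071, adjusted p = 2.83e-05), *Ddx46* (0.42, SE 0.059, adjusted p = 3.27e-05) and *Dhx38* (0.42, SE 0.078, adjusted p = 0.000422). *Ddx39b* (0.38), *Dhx8* (0.35), *Dhx15* (0.28) and *Ddx42* (0.18) were also higher, with adjusted p-values up to 0.0102. *Aqr* did not pass (log2 difference 0.09, 95% interval -0.02 to 0.20, adjusted p = 0.213), nor did *Ddx41* (0.06, 95% interval -0.08 to 0.21, adjusted p = 0.495). Non-overlapping higher libraries with shRNA2 were found for 8 of 9 members, *Aqr* among them, against 23.6% of tested genes. The count of 7 was the same with each library left out.

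The order of the group means was nt-shRNA, shRNA1, shRNA2 for 6 members. In *Dhx16* and *Dhx38* the shRNA1 mean was the lowest, with libraries that overlapped the controls, and in *Ddx41* the control mean was the highest. Summed over the 9 members, the level was 1561 and 1511 CPM with nt-shRNA, 1724, 1711 and 1682 CPM with shRNA1 and 2093, 2245 and 2029 CPM with shRNA2. The ratio of the highest to the lowest library ran from 1.26 for *Ddx41* to 1.90 for *Ddx46*.

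Libraries of shRNA2 were not alike. Replicate 2 had the highest level of the group for 7 of 9 members and the lowest for 0. Replicate 3, with the highest *Eftud2* of the group (235 CPM against 198 and 202), had the lowest level of *Dhx8*, *Dhx15*, *Dhx16*, *Dhx38* and *Ddx46*, while replicate 1 had the lowest of the other members. Relative to the mean, the SD between the 3 libraries was widest for the DEAH enzymes *Dhx38* (157 ± 20.4 CPM, SD, or 13.0% of the mean), *Dhx16* (249 ± 30.9 CPM, 12.4%) and *Dhx8* (129 ± 13.2 CPM, 10.3%) and narrowest for *Aqr* (229 ± 3.11 CPM, 1.36%) and *Ddx42* (204 ± 4.41 CPM, 2.16%).

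Levels can be set against each other only per length, here as CPM per kb of exon from the deposited gene lengths. These lengths merge the exons of all annotated transcripts. For *Aqr* that is 11805 bases, while its transcript with the longest coding sequence held 4789 windows of 100 bases (5032 and 4226 for *Dhx8*). The order below holds for the merged lengths, and an order by transcript length was not worked out. By merged lengths *Ddx39b* was highest in the control with 62.3 CPM per kb (range 61.7 to 63). Then came *Dhx16* with 42.6, *Dhx15* with 38.2, *Ddx42* with 37.1 and *Ddx41* with 27.9. *Dhx38* followed with 25.4, *Ddx46* with 23.6, *Dhx8* with 16.5 and *Aqr* with 15.8. Of neighbours in this order, *Dhx38* and *Ddx46* overlapped between the 2 libraries and the others did not. With shRNA1 *Ddx39b* stood at 75.1 CPM per kb. *Ddx42*, *Dhx16* and *Dhx15*, between 40.6 and 42.6, overlapped each other, as did *Ddx41* (25.3) and *Dhx38* (23.55). With shRNA2 *Ddx39b* reached 97.4 CPM per kb and *Dhx16* 60.9, with *Dhx15* at 49.2 and *Ddx42* at 48.3 overlapping. *Ddx46*, at 40.7 CPM per kb, stood above *Dhx38* (31.5), *Ddx41* (26.5), *Dhx8* (25.6) and *Aqr* (19.4), and of these *Ddx41* and *Dhx8* overlapped.

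**Figure D3:**
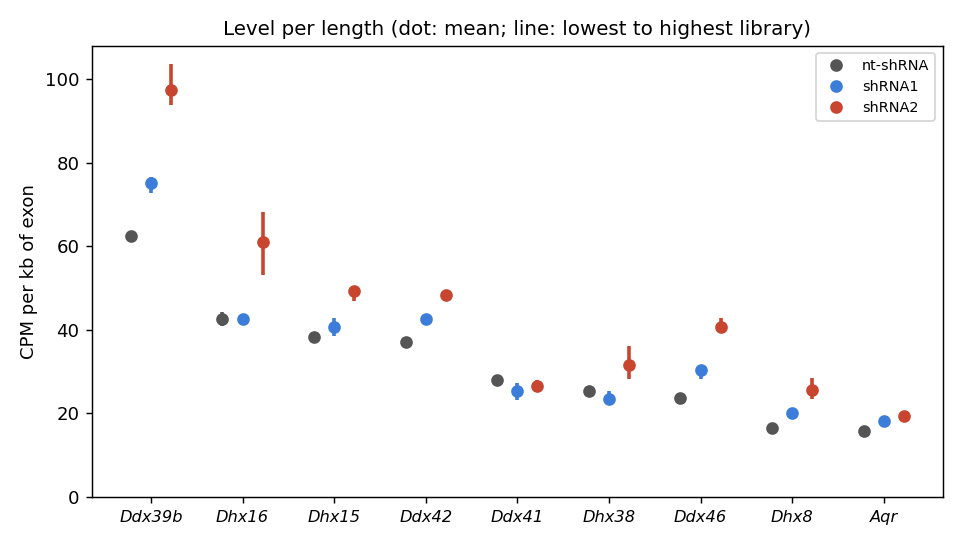
Level of each helicase transcript in CPM per kb of exon (vertical axis, starting at 0), with a dot at the group mean and a line from the lowest to the highest library (nt-shRNA n = 2, shRNA1 and shRNA2 n = 3). Lengths merge the exons of all annotated transcripts. By them *Ddx39b* is highest in every group, at 62.3, 75.1 and 97.4, and *Aqr* lowest, at 15.8, 18.2 and 19.4.

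*Ddx39b* has a close relative, *Ddx39* (also called *Ddx39a*), that works in mRNA export. In the transcript with the longest coding sequence of each gene, the only one searched, no stretch of 100 bases of *Ddx39b* occurred in a transcript of *Ddx39*, and none of a member in a transcript of another gene apart from *Gm46416* for *Ddx41*. *Ddx39* stood at 198 ± 4.46 CPM (SD, n = 2) with nt-shRNA, 224 ± 6.73 CPM (n = 3) with shRNA1 and 287 ± 30.6 CPM (n = 3) with shRNA2. It rose with shRNA2 (log2 fold change 0.54, adjusted p = 5.1e-06), and with shRNA1 its log2 fold change was 0.17 (95% interval 0.02 to 0.32, adjusted p = 0.0798). The ratio of *Ddx39b* to *Ddx39* per kb of merged exon stayed between 1.61 and 1.82 over the 8 libraries. Lengths of single transcripts would shift all 8 values by the same factor. *Ddx39b* (chr17:35241746-35253707, plus strand) holds the small RNA genes *Gm22589* and *Mir8094* within 4.41% of its exonic bases. Both lie on the same strand in the gene models used for counting (GENCODE M24).

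The remaining helicases of the spliceosome were taken as a list of 8. With shRNA2, 6 rose and 1 fell, against backgrounds of 27.2% and 28.7%. With shRNA1, 3 rose and 2 fell, where 13.8% and 17.1% of tested genes did, the fallen share being near that background. The list medians were 0.40 and 0.10 on the log2 scale. *Snrnp200*, the U5 helicase next to EFTUD2, was at 399 and 401 CPM with nt-shRNA, at 448, 451 and 455 CPM with shRNA1 and at 569, 616 and 532 CPM with shRNA2. Its groups did not overlap, and it rose with both hairpins (log2 fold changes 0.17, adjusted p = 0.0458, and 0.52, adjusted p = 1.75e-06). *Ddx23*, the U5 helicase that displaces the U1 snRNP, rose with shRNA2 (0.23, adjusted p = 0.00909) and had a value of -0.02 with shRNA1 (95% interval -0.16 to 0.12). *Eif4a3*, the helicase of the exon junction complex, rose with shRNA2 (0.38, adjusted p = 9.9e-05), with 0.04 for shRNA1 (95% interval -0.10 to 0.18). The extremes of the list were *Dhx9*, a multifunctional RNA helicase, which rose from 233 ± 9.5 CPM with nt-shRNA to 348 ± 39.0 CPM with shRNA1 (log2 fold change 0.58, adjusted p = 3.32e-05) and 584 ± 39.9 CPM with shRNA2 (1.32, adjusted p = 3.87e-10), and *Dhx35*, which fell with both (-0.45, adjusted p = 7.11e-05, and -0.59, adjusted p = 8.81e-07).

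DEAH helicases are switched on by cofactors, many of which carry a G-patch domain. Of 18 such genes, 15 rose and 0 fell with shRNA2 (1 lower at an unadjusted p under 0.05, 0 with DESeq2), where 27.2% and 28.7% of tested genes did. The list median was 0.34 on the log2 scale. With shRNA1, 5 rose and 2 fell, beside 13.8% and 17.1% of tested genes, and the median was 0.13. *Son*, a nuclear speckle scaffold with a G-patch, rose from 219 ± 9.51 CPM with nt-shRNA to 391 ± 22.9 CPM with shRNA1 (log2 fold change 0.84, adjusted p = 1.46e-07) and 533 ± 39.7 CPM with shRNA2 (1.28, adjusted p = 1.1e-10). *Gpatch4* rose by 0.52 (adjusted p = 0.00167) and 1.30 (adjusted p = 1.75e-08) on the same scale.

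Partners of the early helicases were counted in the same way. Of 17 branch-site factors, among them the SF3A and SF3B subunits, 8 rose and 1 fell with shRNA2 (backgrounds 27.2% and 28.7%), and 2 rose and 2 fell with shRNA1, which is near the backgrounds of 13.8% and 17.1%. The medians were 0.14 and 0.03. *Phf5a* (log2 fold changes 0.22 and 0.58, adjusted p = 0.0127 and 3.59e-07) and *Sf3b3* (0.19 and 0.59, adjusted p = 0.0333 and 3.72e-07), both coding for SF3B subunits, rose with both hairpins, whereas *Sf3b5*, a further SF3B subunit, fell with both (-0.26 and -0.30, adjusted p = 0.0105 and 0.00159). For the TREX and export partners of *Ddx39b*, 6 of 14 tested genes rose and 2 fell with shRNA2, against 3 and 0 with shRNA1 (also 0 at an unadjusted p under 0.05 and with DESeq2). The tested genes as a whole gave 27.2% and 28.7% with shRNA2 and 13.8% and 17.1% with shRNA1, so that 3 of 14 with shRNA1 is near the background. The list medians were 0.10 and 0.03. *Alyref*, the export adaptor that binds DDX39B, rose with both (0.21 and 0.75, adjusted p = 0.0411 and 1.57e-07), as did the THO subunit gene *Thoc1* (0.48 and 0.87, adjusted p = 0.00104 and 5.05e-07). *Zc3h11a* fell with shRNA2 (-0.32, adjusted p = 0.0149).

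**Figure D4:**
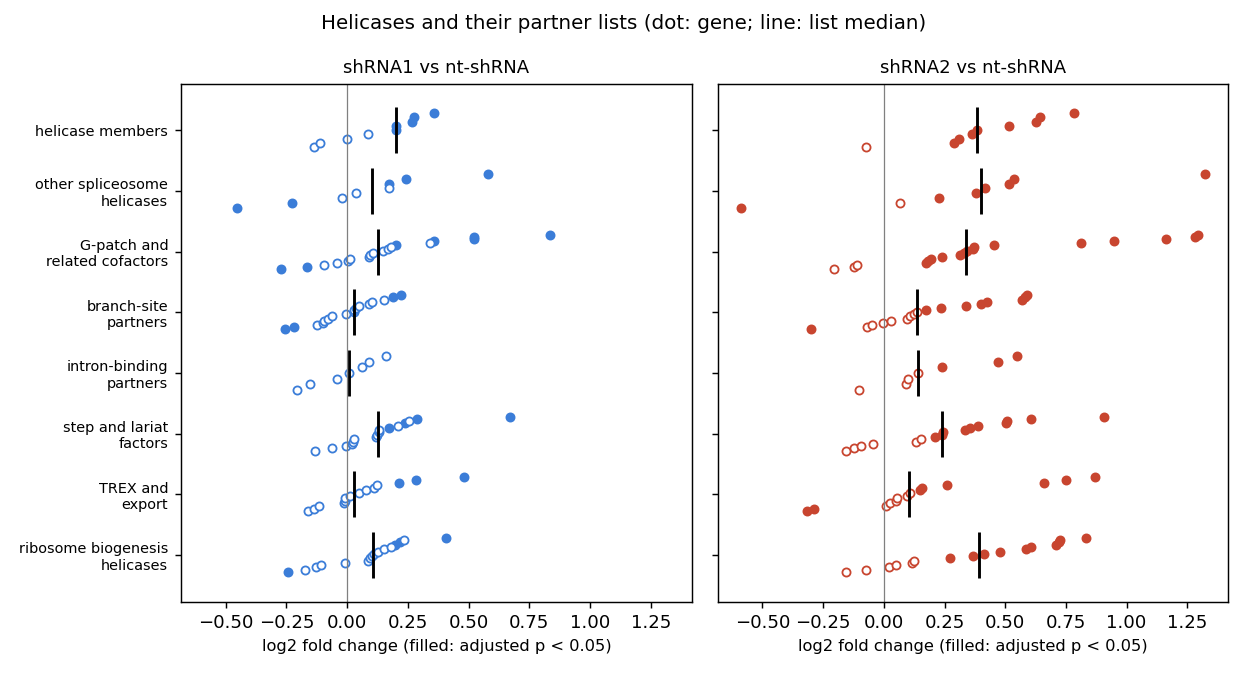
Log2 fold change (horizontal axes) of each gene of the helicase set and of 7 lists, for shRNA1 and shRNA2 against nt-shRNA, with filled dots where the adjusted p was under 0.05 and a line at the list median. The median of the helicases lies at 0.20 and 0.38, and that of the branch-site partners at 0.03 and 0.14.

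Of 7 partners of *Aqr* in the intron-binding complex and next to it, 0 were called with shRNA1 by edgeR or DESeq2. By edgeR, 13.8% of tested genes rose and 17.1% fell with shRNA1. At an unadjusted p under 0.05, 2 of the 7 were lower. With shRNA2, 3 rose and 0 fell (also 0 lower at an unadjusted p under 0.05 and with DESeq2), and the list median was 0.14. With 27.2% of tested genes risen and 28.7% fallen, 3 of 7 higher is not far from the background. *Ccdc12* (log2 fold change 0.55, adjusted p = 5.49e-05) and *Bud31* (0.47, adjusted p = 0.000264) were among them. The factors of the catalytic steps and of lariat release, 16 genes, counted 10 higher and 0 lower with shRNA2 and 4 higher and 0 lower with shRNA1, beside backgrounds of 27.2% and 28.7%, and of 13.8% and 17.1%. The medians were 0.24 and 0.13. Lower genes numbered 0 here also at an unadjusted p under 0.05 and with DESeq2. *Cwc22*, which brings EIF4A3 to the spliceosome, rose from 84.6 ± 2.82 CPM to 135 ± 6.98 CPM with shRNA1 (log2 fold change 0.67, adjusted p = 4.05e-07) and 159 ± 1.84 CPM with shRNA2 (0.91, adjusted p = 1.3e-09). *Slu7*, a factor of the second step, rose by 0.29 (adjusted p = 0.00663) and 0.50 (adjusted p = 1.42e-05).

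Helicases outside the spliceosome were counted as well. In a list of 16 DEAD- and DEAH-box helicases of ribosome biogenesis, set beside the members for comparison, 10 rose and 0 fell with shRNA2 (1 lower at an unadjusted p under 0.05, 0 with DESeq2), and 3 rose and 1 fell with shRNA1. Against backgrounds of 27.2% and 28.7% with shRNA2 and 13.8% and 17.1% with shRNA1, the shRNA1 counts are near those of all genes. The list medians, 0.39 with shRNA2 and 0.11 with shRNA1, were close to those of the remaining spliceosomal helicases. Those of the 9 members were 0.38 and 0.20. *Ddx21* (log2 fold changes 0.41 and 0.72, adjusted p = 9.49e-05 and 2.69e-08) and *Ddx52* (0.22 and 0.71, adjusted p = 0.0416 and 3.34e-07) rose with both. The direct comparison of shRNA2 with shRNA1, where 16.9% of tested genes were higher and 18.7% lower, gave 7 of 8 higher among the remaining spliceosomal helicases, 12 of 18 among the cofactors, 10 of 17 among branch-site factors, 3 of 7 among the *Aqr* partners, 6 of 16 among the step factors, 5 of 14 among the export partners and 10 of 16 among the ribosomal helicases. Lower genes numbered 1 among the export partners (*Fyttd1*, log2 difference -0.23, adjusted p = 0.00647, named after its value was seen) and 0 in the other lists, where an unadjusted p under 0.05 gave 1 among the step factors and DESeq2 gave 0. Whether the lists differ from one another was not tested.

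Among all other tested genes, the pattern over the 8 libraries most like the average of the members was that of *Abcf2*, *Sept11* and *Psmc5*. Pearson's r with the mean standardized log2 CPM of the 9 helicases was 0.996 for each. Such likeness was common, with 589 of 17436 genes over 0.95 and 18 over 0.99. The libraries fall into 3 groups that differ in level, and how far r reflects the order of the groups was not tested.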

How the data were processed

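The authors aligned paired 100 bp reads to mm10 (GRCm38) with STAR, end to end, counted fragments on exons with featureCounts 1.6.2 against GENCODE M24, and deposited raw counts for 55385 genes, without strand and without multiply aligned fragments. Symbols came from GENCODE M21 through the Ensembl identifier (55144 genes named). All 8 libraries were analysed with edgeR 4.0.16 (R 4.3.3, limma 3.58.1): filterByExpr (minimum count 10) left 17445 genes, TMM factors ran from 0.935 to 1.036, and glmQLFit and glmQLFTest with a coefficient per group gave p-values adjusted by Benjamini-Hochberg over all tested genes and called under 0.05. CPM are TMM-normalized. Standard errors come from the F statistic, and intervals are 95%. The biological coefficient of variation was 0.0638. Within groups the chi-square per gene between libraries ran from 3.12 to 12.0, so no library repeated another. Total counts set the precision given with the depths. The code was first tested on simulated data.

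The 9 members and the lists of partners and markers were chosen with earlier results of these data known. Named genes are the members, *Eftud2*, *Snrnp200*, *Ddx23*, *Eif4a3*, *Ddx39*, the 2 most significant genes per list with shRNA2 and the called gene furthest the other way, the 3 genes most like the members, and genes overlapping a member. *Rbm17* is in 2 lists. The authors used DESeq2 for their own test. Alternatives were DESeq2 1.42.0, its size factors, library size alone, no filter, a replicate block, counts thinned to 19569525 per library, only the groups compared and each library left out, 15 settings in all. Coding bases came from GENCODE M21 with Biopython 1.88, and figures from matplotlib 3.10.9 (Python 3.11.15, pandas 2.3.3).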

Additional observations from a re-analysis of the deposited data

How the results depend on the processing

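Over the 15 settings no called member changed direction. With library size alone as the scaling the median of the members with shRNA1 moved from 0.20 to 0.32 and the genes of the 7 lists called with shRNA1 from 27 to 49. That scaling moved the median of all genes to 0.11 with shRNA1 and 0.09 with shRNA2, and the share of higher genes among those called from 44.7%, 48.7% and 47.4% (shRNA1, shRNA2, shRNA2 against shRNA1) to 70.5%, 58.9% and 41.9%. The log2 fold change of *Eftud2* with shRNA1 passed the threshold without the filter (-0.18, adjusted p = 0.03), with DESeq2 (-0.18, adjusted p = 0.0487), with only the groups compared (-0.16, adjusted p = 0.0491) and with the replicate block (-0.21, adjusted p = 0.0206), and with library size alone it was -0.06 (adjusted p = 0.498).

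Leaving out each library gave 2 to 5 members higher with shRNA1, 7 to 8 with shRNA2 and 7 in the direct comparison. The genes called with shRNA1 over the 7 lists, the ribosome biogenesis helicases included, ranged from 10, without nt-shRNA replicate 1, to 33. They were 15 without nt-shRNA replicate 2, 15 without shRNA1 replicate 2 and 16 without shRNA1 replicate 1. Of the shRNA1 calls, *Aqr* was lost without each of these 4 libraries (adjusted p from 0.0576 to 0.147), *Ddx42* without shRNA1 replicate 2 or either control (0.0553 to 0.0922) and *Dhx8* without either control (0.0558 and 0.0617), while the log2 fold changes in those fits were 0.17 to 0.23 for *Aqr*, 0.19 to 0.20 for *Ddx42* and 0.27 for *Dhx8*, against 0.20, 0.20 and 0.27 with all libraries. For *Eftud2* the range was -0.20 to -0.16 with shRNA1, called without shRNA2 replicate 2 or 3 (adjusted p = 0.0415 and 0.0215), and -0.193 to -0.0678 for shRNA2 against shRNA1, called without shRNA2 replicate 3 (-0.19, adjusted p = 0.0127). Over all genes, those called with shRNA1 dropped from 2407 higher and 2981 lower to 1248 and 1700 without nt-shRNA replicate 1, and to 1531 higher without nt-shRNA replicate 2, and library size alone gave 4101 and 1713. A group left with 1 library was assumed to vary like the others.

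Same-numbered libraries deviated together with r between -0.03 and 0.07, so the replicate numbers were not taken as pairs. The fit with the replicate block called 5, 8 and 7 members higher, as without it, and over all genes 2694 higher and 3324 lower with shRNA1, 4898 and 5136 with shRNA2 and 3116 and 3402 in the direct comparison, against 2407 and 2981, 4748 and 5010, and 2941 and 3263 without the block.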
